A study of Mus musculus with 4 samples.

Results

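The DNA replication machinery of mouse haematopoietic stem cells was followed through 33 genes that act when a cell licenses, opens, copies and repackages its genome. The members were taken by function, and 32 of the 33 were measured by a probe set naming that gene alone, among 18193 genes in all. Chaf1a was not analysed here. Where a gene had several probe sets, the brightest on average was used. The cells were bone marrow stem cells (Lin- Sca+ Kit+ CD48- CD150+) of transgenic mice whose N-myc is fused to the fluorescent protein mCherry, and mCherry brightness separated the brighter cells (N-myc high) from the dimmer cells (N-myc low). Every animal carried the fusion, no animal was treated and the cells were not cultured, so the N-myc low fraction of the same mice is the comparison group. Each fraction was profiled in mouse 1 and in mouse 2, which makes 2 arrays a group. The sources used here give no strain and no age, and do not say whether a mouse number stands for 1 animal or a pool. The p-values measure only the spread between these samples.

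Replication starts when the origin recognition complex, Cdc6 and Cdt1 load the ring-shaped MCM helicase onto DNA, a step called licensing. Cdc45 and the GINS complex switch the helicase on at the start of S phase, primase and DNA polymerase alpha lay down primers, and polymerases delta and epsilon extend them on the sliding clamp Pcna that replication factor C loads. Flaps are then removed, nicks sealed and new histones deposited. Stem cells of adult marrow are mostly quiescent, and many replication genes are targets of E2F transcription factors, while MYC proteins bind the E-box CACGTG.

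Promoter windows are shown for members that differ in these motifs, because the sort was made on a MYC protein and the genes are known for E2F control. A window of 250 bases before the transcript start (RefSeq, build GRCm38.p6) was found for 26 of the 32 members. It was searched on both strands for the E2F-type words TTTCCCGC, TTTGGCGC, TTTCGCGC, TTTGCCGC and TTCCCGCC, which can overlap each other, and for CACGTG. An E2F-type word was found for 9 of the 26 members (34.6%), namely Mcm5, Mcm6, Mcm7, Cdc6, Pola1, Prim1, Rfc3, Hells and Dtl, against 3.73% of 27025 genes in the table. CACGTG was found for 1 of 26 (3.85%), Fen1, against 6.86% of all genes. The last 150 bases before the start are printed below 5′ to 3′ on the gene's strand, with matches in capitals. Mcm6 holds 3 E2F-type words in 2 stretches, Cdc6 and Rfc3 hold 1 each, Rfc4 holds none of the words searched, and the second annotated start of Fen1 holds the E-box.
Mcm6 (chr1:128359706-128359855, minus strand): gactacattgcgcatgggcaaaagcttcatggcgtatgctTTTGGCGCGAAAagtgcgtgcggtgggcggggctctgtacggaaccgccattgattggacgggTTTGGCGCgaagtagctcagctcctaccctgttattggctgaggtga
Cdc6 (chr11:98908001-98908150, plus strand): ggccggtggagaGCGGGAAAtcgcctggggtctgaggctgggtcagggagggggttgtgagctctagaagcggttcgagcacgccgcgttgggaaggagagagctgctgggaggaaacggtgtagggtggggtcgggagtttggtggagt
Rfc3 (chr5:151651209-151651358, minus strand): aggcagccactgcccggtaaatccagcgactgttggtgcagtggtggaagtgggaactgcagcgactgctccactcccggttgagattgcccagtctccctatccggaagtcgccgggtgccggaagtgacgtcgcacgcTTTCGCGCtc
Rfc4 (chr16:23127731-23127880, minus strand): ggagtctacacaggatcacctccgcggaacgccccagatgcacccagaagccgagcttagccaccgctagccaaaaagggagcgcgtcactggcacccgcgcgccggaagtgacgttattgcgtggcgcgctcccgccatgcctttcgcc
Fen1 (chr19:10203922-10204071, minus strand): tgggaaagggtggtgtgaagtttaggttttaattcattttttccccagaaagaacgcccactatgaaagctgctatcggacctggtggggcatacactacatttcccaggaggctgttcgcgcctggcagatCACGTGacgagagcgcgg

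Mcm4, Gins1, Gins2, Prim2, Pole and Tipin had no window here. The 9 members with an E2F-type word had a median log2 difference (N-myc high minus N-myc low) of 0.05, and the 17 members with a window but no such word had -0.10. Among the members with the word, Mcm7 (-0.05), Pola1 (-0.18), Prim1 (-0.25) and Dtl (-0.24) lay below 0, and the others above. These values hold for the probe sets used. With the mean of each gene's probe sets, Mcm5, Mcm6, Rfc3 and Hells also fell below 0, which left only Cdc6 above. No difference between members with and without the word is therefore read from the medians. Of the members with the word, only Mcm6, Cdc6 and Rfc3 are printed, all above 0 on the probe sets used. Fen1, the member with the E-box, gave -0.38. These matches describe letters in the window and show no binding.

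Mycn, the gene behind the sort, was higher in N-myc high cells on the probe set used. It read 10.48 and 10.39 on the N-myc high arrays (mouse 1, then mouse 2, as throughout), against 9.44 and 9.65 on the N-myc low arrays, in log2 intensity. This is a difference of 0.89 with a standard error (SE) of 0.189 (limma adjusted p = 0.762). Kit, a surface marker of the sort, was at 10.17 to 10.53 on all 4 arrays, and Slamf1, the gene of CD150, at 8.01 to 8.99. The other 4 measured stem cell genes had the higher level on both N-myc high arrays, with differences of 1.19 for Procr, 1.58 for Fgd5, 0.79 for Hlf and 1.05 for Mecom. The median of these 6 stem cell genes was 0.92, and the 4 each had an unadjusted p under 0.05 in limma, with adjusted p of 0.744 to 0.769. Both arrays of mouse 1 carried the X-inactivation RNA Xist (11.38 and 11.10) and the Y-linked Eif2s3y (8.53 and 8.43), while those of mouse 2 had Xist at 3.84 and 3.70. Whether the mouse 1 samples hold RNA of more than 1 animal was not tested, so differences are also given within each mouse.

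Markers of other cells and of cell division moved with the fractions to different degrees. The 7 measured proliferation genes had a median difference of -0.18. Of these, 5 of 7 (71.4%, against 20.8% of all genes) were lower in both N-myc high arrays than in both N-myc low arrays. Mki67 (-0.0097) and Ccna2 (-0.02) differed little, with overlapping groups and opposite signs in the 2 mice. Aurkb gave -0.06, Cdk1 -0.18 and Top2a -0.26. Birc5, a mitotic survivin gene, gave -0.48 and the checkpoint kinase gene Bub1 -1.02. The 4 progenitor genes had a median of -0.76, with Cdk6 at -0.97, Cd48 at -2.21, Cd34 at -0.55 and the opposite sign for Flt3 at 1.20. The cells were sorted as CD48-. Cd48 RNA read 7.42 and 7.11 on the N-myc high arrays, against 9.89 and 9.07 on the N-myc low arrays, and the reason was not tested. All 5 measured granulocyte and monocyte genes and all 4 measured erythroid genes were below 0, with medians of -0.63 and -0.34. The mean log2 level of the granulocyte and monocyte genes was 9.86 and 9.60 on the N-myc high arrays, against 10.20 and 10.32 on the N-myc low arrays. Of the 4 T and NK cell genes (median -0.39), Cd3e and Cd3g read between 2.50 and 3.29 on all arrays, while the cytotoxic genes Nkg7 and Gzmb gave -0.77 and -0.87. Other lists lay above 0. The 6 macrophage genes had a median of 0.29, with the complement gene C1qb at 2.66, the smallest unadjusted p of all genes, and Mrc1 at 2.26. The groups overlapped for C1qa (0.32), C1qc (0.26), Vcam1 (0.14) and Adgre1 (-0.14). The 3 measured B cell genes had a median of 0.65, with Vpreb1 at 2.45, Cd79a at 0.65 and Pax5 at -0.22. The part of these other cells in the replication values was not tested. In such bulk samples, fewer cells of a type and less RNA per cell cannot be told apart.

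No replication gene was called different between the fractions with these 4 arrays. None of the 32 members passed an adjusted p under 0.05 in limma, where 0% of the 18193 genes passed (lowest adjusted p of a member 0.793). At an unadjusted p under 0.05 there were 0 of 32 members, against 6.31% of all genes (3.53% with the higher level in N-myc high and 2.78% with the lower). The median difference of the members was -0.03 (range -0.71 to 0.40), and over all genes it was -0.03. Of the members, 13 lay above 0 and 19 below, and 29 of 32 differed by less than 0.5 on the log2 scale. Missing the threshold does not show equal levels, so 95% intervals of the difference are given. These lay within 2-fold in both directions for 23 of 32 members (71.9%), against 63.3% of all genes.

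The N-myc high arrays both exceeded the N-myc low arrays for 4 members (12.5%, against 15.6% of all genes), namely Mcm3, Gins2, Chaf1b and Clspn. They were both below for 6 members (18.8%, against 20.8% of all genes), namely Cdt1, Pole, Rfc4, Fen1, Lig1 and Dtl. The other 22 overlapped. These shares were near the background, so the separations are described and nothing is read from their number.

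**Figure D1:**
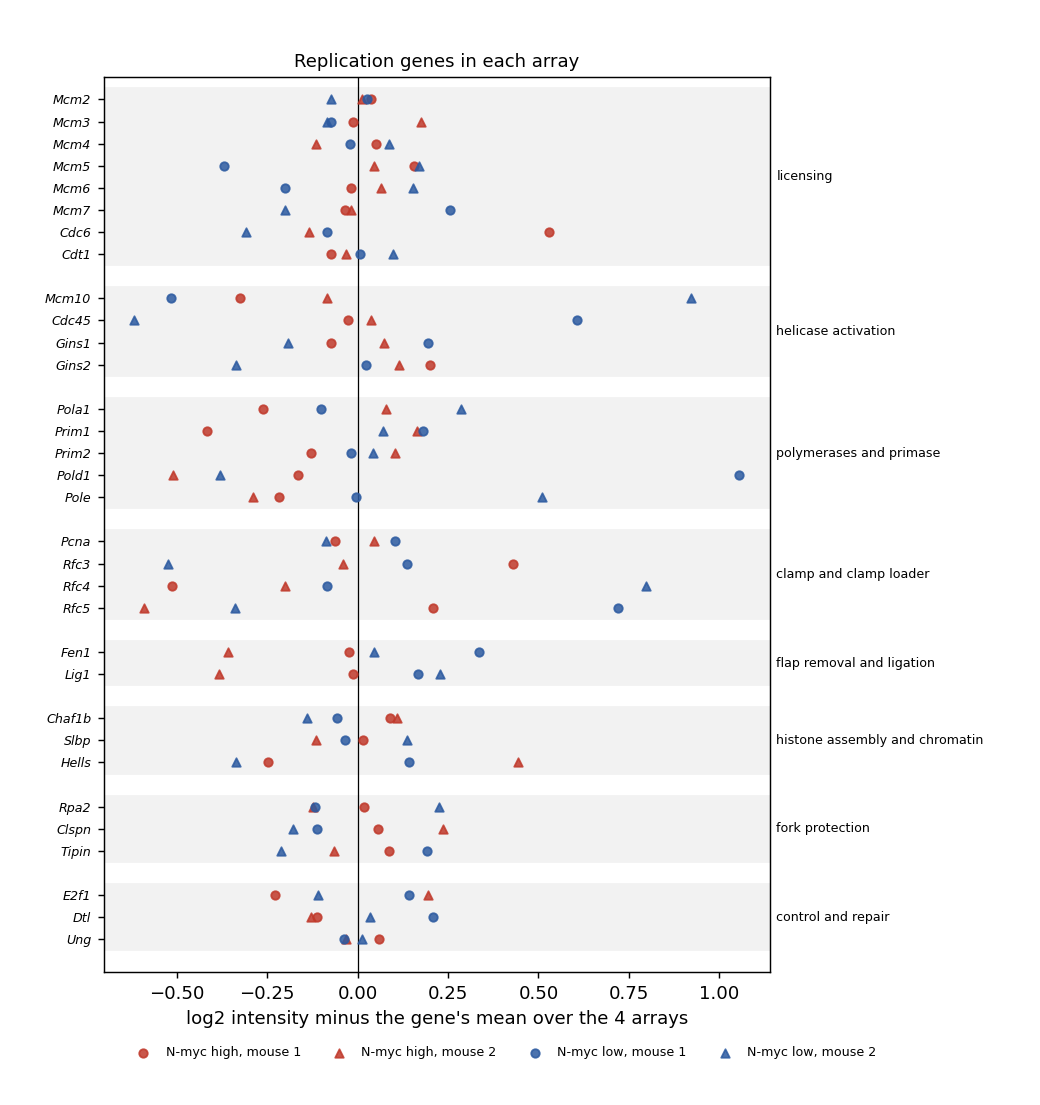
Log2 intensity of each of the 32 replication genes in each of the 4 arrays, minus the gene's mean over the arrays; red marks N-myc high, blue N-myc low, circles mouse 1 and triangles mouse 2. The MCM genes lie close together, while Pold1 stands out in N-myc low mouse 1 and Mcm10 and Rfc4 in N-myc low mouse 2.

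Licensing genes differed little between the fractions on the probe sets used. The 8 members had a median difference of 0.05 (0.07 in mouse 1 and -0.0029 in mouse 2) and ranged from -0.11 to 0.40. With the mean of each gene's probe sets the median turned to -0.042, and with the arrays centred to -0.0036. The 6 subunits of the MCM2-7 helicase gave 0.05 for Mcm2, 0.16 for Mcm3, -0.06 for Mcm4, 0.20 for Mcm5, 0.05 for Mcm6 and -0.05 for Mcm7. On the probe sets used, the 95% interval lay within 2-fold in both directions for all 6 subunits. The intervals ran from -0.42 to 0.51 for Mcm2, the tightest of the 6, and from -0.47 to 0.87 for Mcm5, the widest. Other probe sets gave -0.20 for Mcm2, 0.05 for Mcm4, -1.54 and -0.14 for Mcm5, and -0.26 and -0.15 for Mcm6. They ranged from -0.41 to 0.35 for Mcm3 and from -0.59 to 0.12 for Mcm7.

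Mcm3 read 11.23 and 11.42 on the N-myc high arrays, against 11.17 and 11.16 on the N-myc low arrays, a difference of 0.16 (SE 0.183, limma adjusted p = 0.895). Its groups did not overlap, but the gap between the nearest arrays was small beside the difference of the 2 N-myc high arrays. Mcm5 was low in 1 array alone, reading 10.57 and 10.46 on the N-myc high arrays, against 10.04 and 10.58 on the N-myc low arrays. Without N-myc low mouse 1 its difference was -0.07. Mcm7 was highest in that same array, reading 11.69 and 11.71 on the N-myc high arrays, against 11.98 and 11.53 on the N-myc low arrays. On the probe sets used, Mcm4, Mcm5 and Mcm6 were highest in N-myc low mouse 2, where Mcm2, Mcm3 and Mcm7 were lowest. This split depended on the probe set. In that array the other probe set of Mcm4 was lowest (9.77) and that of Mcm2 highest (9.72). No other probe set of Mcm5 was highest there, and those of Mcm3, Mcm6 and Mcm7 were mixed.

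Cdc6, the loader that recruits the helicase with Cdt1, had the smallest p of the step. It read 8.25 and 7.59 on the N-myc high arrays, against 7.64 and 7.42 on the N-myc low arrays, a difference of 0.40 (SE 0.289, limma adjusted p = 0.832). Only N-myc high mouse 1 stood above the other arrays, and the groups overlapped. Cdt1 read 11.03 and 11.07 on the N-myc high arrays, against 11.11 and 11.20 on the N-myc low arrays, a difference of -0.11 (SE 0.175). Both N-myc high arrays were lower, yet the other probe sets of Cdt1 had the opposite sign, with 0.42 and 0.27. The one with 0.27 read only 2.57 to 3.02, below the median gene level of 6.22, so little rests on it.

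Genes that activate the helicase varied more between arrays than between fractions. The median difference over the 4 members was 0.0044, with -0.05 in mouse 1 and 0.36 in mouse 2, and it ranged from -0.064 to 0.34 over the alternatives. Gins2, a subunit of the GINS complex, read 9.49 and 9.41 on the N-myc high arrays, against 9.32 and 8.96 on the N-myc low arrays. Its difference of 0.31 (SE 0.211, limma adjusted p = 0.826) was the largest positive one of the step, and its other probe set gave -0.03. Gins1, its partner in the complex, had an interval of -0.59 to 0.58 around a difference near 0.

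The 2 N-myc low arrays disagreed for Mcm10 and Cdc45. Mcm10, which helps to activate the loaded helicase, read 7.94 and 8.18 on the N-myc high arrays, against 7.75 and 9.19 on the N-myc low arrays. Cdc45, a core part of the active helicase, read 6.72 and 6.78 on the N-myc high arrays, against 7.35 and 6.12 on the N-myc low arrays. The N-myc high arrays lay between the N-myc low arrays for both genes, in opposite order of the mice. Their intervals, -1.78 to 0.96 for Mcm10 and -1.17 to 1.19 for Cdc45, did not exclude a 2-fold difference.

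Polymerase and primase genes all lay below 0, without passing the test. The 5 members had a median difference of -0.25 (-0.21 in mouse 1 and -0.13 in mouse 2), and 3 of 5 were lower in both mice. Leaving out the N-myc high array of mouse 1 gave a median of -0.01, and leaving out that of mouse 2 gave -0.47. With the mean of each gene's probe sets it was -0.51. Of all genes, 54.7% lay below 0.

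Pole, the catalytic subunit of the leading-strand polymerase epsilon, had the smallest p of all members. It read 9.26 and 9.19 on the N-myc high arrays, against 9.47 and 9.98 on the N-myc low arrays, with means of 9.22 ± 0.051 and 9.73 ± 0.365 (SD, n = 2). The N-myc low arrays were both higher, mouse 2 most. The difference was -0.51 (SE 0.244, 95% interval -1.15 to 0.14, limma adjusted p = 0.793). It was -0.21 in mouse 1 and -0.80 in mouse 2.

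Pold1, the catalytic subunit of polymerase delta, had a large difference of -0.67 that rested on 1 array. It read 10.87 and 10.52 on the N-myc high arrays, against 12.09 and 10.65 on the N-myc low arrays. Without N-myc low mouse 1 its difference was 0.04. Its other probe set read 8.19 and 7.89 on the N-myc high arrays, against 8.54 and 8.33 on the N-myc low arrays, a difference of -0.40. Prim1, the primase subunit that makes the RNA primer, gave -0.25, its partner Prim2 -0.03 and Pola1, the catalytic subunit of polymerase alpha, -0.18. Pola1 was lower in both mice, by -0.16 in mouse 1 and -0.21 in mouse 2, although its groups overlapped.

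The clamp differed little, and the genes of its loader had differences of either sign. Pcna read 11.90 and 12.01 on the N-myc high arrays, against 12.07 and 11.88 on the N-myc low arrays, a difference of -0.02 (interval -0.51 to 0.48). The 4 members of the step had a median of -0.20 (-0.30 in mouse 1 and -0.06 in mouse 2), and it was 0.11 without N-myc low mouse 1.

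Rfc4, a subunit of the pentameric clamp loader, had the largest difference of all members. It read 8.53 and 8.84 on the N-myc high arrays, against 8.96 and 9.84 on the N-myc low arrays, with means of 8.69 ± 0.220 and 9.40 ± 0.623 (SD, n = 2). The groups did not overlap, but N-myc high mouse 2 and N-myc low mouse 1 were close. The difference was -0.71, a 1.64-fold lower level (SE 0.355, 95% interval -1.66 to 0.23, limma adjusted p = 0.802). Mouse 1 gave -0.43 and mouse 2 gave -0.998. A further probe set of Rfc4 gave -0.38, again with both N-myc high arrays (7.98 and 7.97) below both N-myc low arrays (8.32 and 8.39).

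Rfc3 and Rfc5, further small subunits of the loader, showed no shared direction. Rfc3 read 9.09 and 8.62 on the N-myc high arrays, against 8.80 and 8.14 on the N-myc low arrays, a difference of 0.39. Its other probe set gave -0.54 and had both N-myc high arrays (7.43 and 7.30) below both N-myc low arrays (7.86 and 7.95), the opposite sign. Rfc5 gave -0.38 and was higher in mouse 1 than in mouse 2 in both fractions (9.08 against 8.28 in N-myc high and 9.59 against 8.53 in N-myc low). The window of Rfc3 printed above holds an E2F-type word, and those of Rfc4 and Rfc5 none of the words searched. As the probe sets of Rfc3 differ in sign, no direction is read from this, and a link was not tested.

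Both genes of flap removal and ligation lay lower in N-myc high cells on the probe sets used, with groups that did not overlap. Of all genes, 20.8% were apart and lower in this way, so nothing is read from these 2. Fen1, the nuclease that trims flaps of lagging-strand fragments, read 10.33 and 9.99 on the N-myc high arrays, against 10.69 and 10.40 on the N-myc low arrays. The difference was -0.38 (SE 0.227, limma adjusted p = 0.811), and -0.36 and -0.40 in mouse 1 and mouse 2. Its other probe set gave -0.31 with overlapping groups, -0.98 in mouse 1 and 0.35 in mouse 2.

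Lig1, the ligase that seals those fragments, read 9.95 and 9.58 on the N-myc high arrays, against 10.13 and 10.19 on the N-myc low arrays. The difference was -0.40 (SE 0.212, 95% interval -0.96 to 0.17, limma adjusted p = 0.806), and -0.18 and -0.61 in mouse 1 and mouse 2. Neither passed the test. Both kept this sign in every alternative, but most of that was fixed in advance. Leaving out an array cannot turn the sign of a gene whose groups do not overlap. The runs with a block, a filter or another prior return the same difference, and Lig1 has only 1 probe set. In these same arrays the proliferation genes had the median of -0.18 given above, and whether that bears on Fen1 and Lig1 was not tested.

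Genes of histone assembly and chromatin had small differences on the probe sets used. Chaf1b, a subunit of chromatin assembly factor 1, which places new histones behind the fork, read 9.94 and 9.96 on the N-myc high arrays, against 9.79 and 9.71 on the N-myc low arrays. Both N-myc high arrays were higher, by a difference of 0.20 (SE 0.174, 95% interval -0.26 to 0.66, limma adjusted p = 0.856). The other probe set of Chaf1b gave 0.26, but read only 3.48 to 3.95, below the median gene level of 6.22. Slbp, which binds the stem-loop of histone mRNA, gave -0.10. Hells, a chromatin remodeller of the SNF2 family, gave 0.19, but -0.39 in mouse 1 and 0.78 in mouse 2. Other probe sets for Hells gave -0.75 and -1.11, the opposite sign. The median of the 3 members was 0.19 (0.05 in mouse 1 and 0.25 in mouse 2). It turned to -0.027 with the mean of each gene's probe sets, to -0.036 without N-myc high mouse 2 and to -0.016 without N-myc low mouse 2.

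Genes that protect the fork had a median of 0.02 over 3 members, which turned to -0.031 with the arrays centred, -0.065 with every probe set and -0.056 without N-myc high mouse 1. Clspn, or claspin, an adaptor of the replication checkpoint, read 8.505 and 8.68 on the N-myc high arrays, against 8.33 and 8.27 on the N-myc low arrays. Its difference was 0.29 (SE 0.183, 95% interval -0.19 to 0.78, limma adjusted p = 0.820), and its other probe set gave -0.06. Tipin, which works with Timeless at the fork, gave 0.02, and Rpa2, a subunit of the single-strand binding protein RPA, gave -0.11. For all 3 members the interval lay within 2-fold in both directions.

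Among the control and repair genes, Dtl was lower in both N-myc high arrays. Dtl, the substrate receptor of the ubiquitin ligase that destroys Cdt1 on DNA-bound Pcna, read 9.19 and 9.17 on the N-myc high arrays, against 9.51 and 9.34 on the N-myc low arrays. Its difference was -0.24 (SE 0.181, limma adjusted p = 0.832). Of its 5 other probe sets, 4 had the same sign, and the one with the largest difference gave -1.20 (5.17 and 5.51 on the N-myc high arrays, 6.61 and 6.48 on the N-myc low arrays). E2f1, the transcription factor of S-phase genes, gave -0.03 and Ung, a uracil-DNA glycosylase, 0.03. The intervals of E2f1 (-0.66 to 0.60) and Ung (-0.44 to 0.49) lay within 2-fold.

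**Figure D2:**
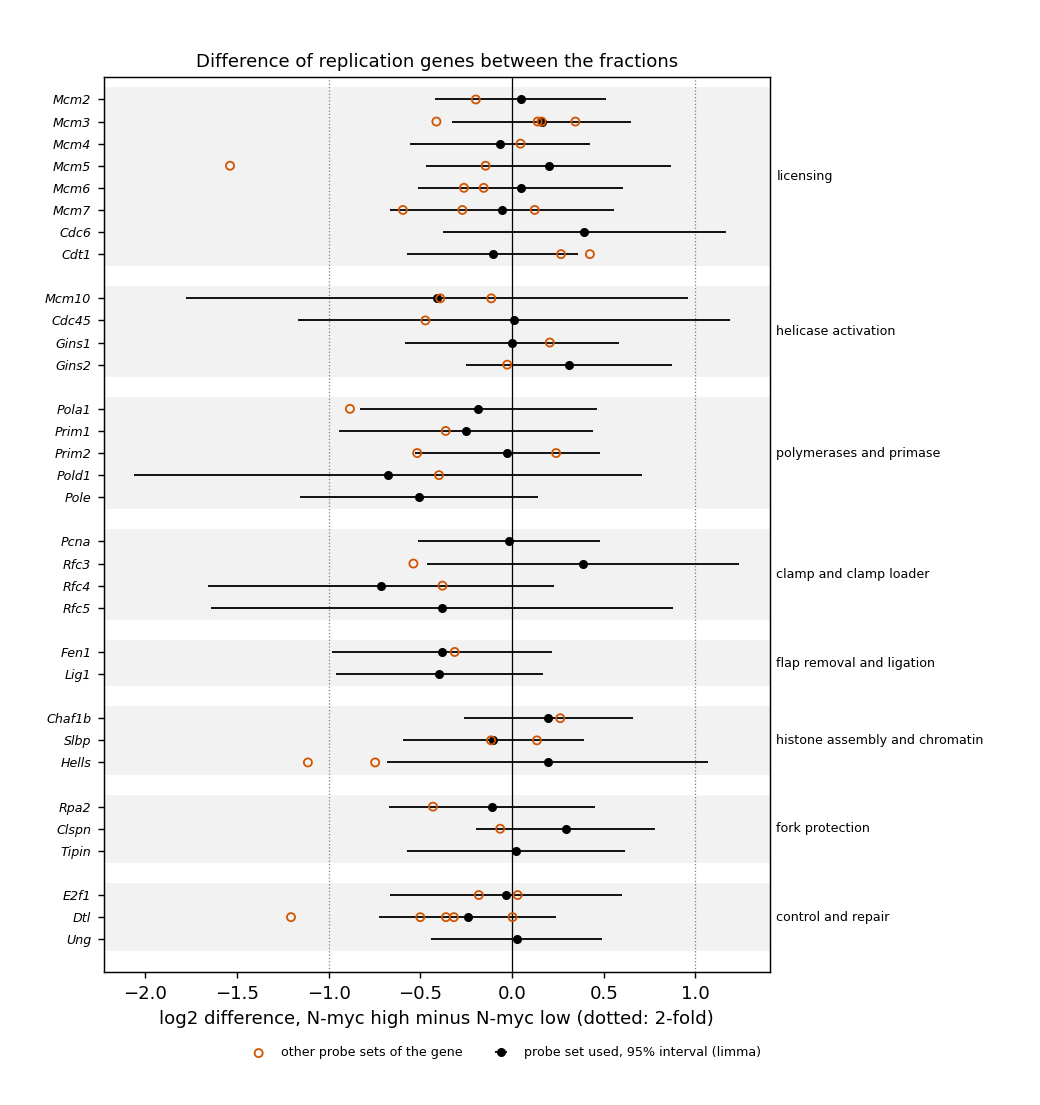
Log2 difference between N-myc high and N-myc low for each of the 32 replication genes by step; black points are the probe set used with its 95% interval from limma, open orange circles the gene's other probe sets, and dotted lines mark 2-fold. Every interval includes 0, and 23 of 32 stay between the dotted lines.

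The probe set chosen for a gene decided the sign for many members. Of the 32 members, 25 had further probe sets, 42 in all, and 21 of these 42 had the sign of the probe set used and 21 the opposite sign. All probe sets agreed in sign for 8 members, and 17 had at least 1 of opposite sign. The other probe sets had a median difference of -0.23, and 29 of 42 lay below 0. Over all 74 probe sets of the members, 48 lay below 0, where 55.0% of all probe sets naming 1 gene did. At an unadjusted p under 0.05 there were 3 of the 74, where 6.32% of all probe sets naming 1 gene were, those of Dtl, Mcm7 and Rfc3 at -1.20, -0.59 and -0.54. With the mean of a gene's probe sets the median of the members was -0.11. The probe sets used for 5 members (Mcm4, Mcm5, Mcm6, Pold1 and Fen1) have names ending in x_at, a class that can also bind other transcripts. Those for 3 more (Mcm3, Mcm7 and Rfc4) end in s_at, and whether they bind other transcripts was not checked.

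The 2 mice agreed little on which genes differed, among the replication members as over all genes. Of the 32 members, 7 were higher in N-myc high cells in both mice (21.9%, against 23.2% of all genes) and 9 lower in both (28.1%, against 29.7%). The other 16 had opposite signs (50%, against 47%). Over the 32 members, which share the same 4 arrays and are not replicates, the differences of the mice had r = 0.03, and over all genes r = 0.11. Rfc4, Pole, Lig1, Fen1, Rfc5, Pold1, Dtl, Pola1 and Cdt1 were the members lower in both mice. Mcm2, Mcm3, Cdc6, Gins2, Rfc3, Chaf1b and Clspn were those higher in both.

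**Figure D3:**
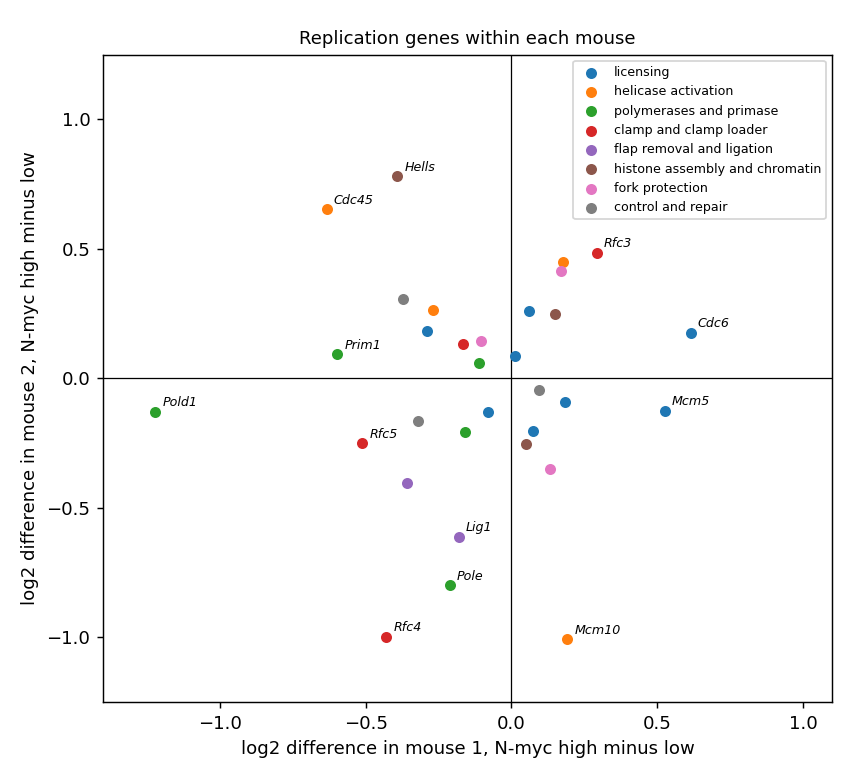
Log2 difference between N-myc high and N-myc low in mouse 1 (horizontal) and mouse 2 (vertical) for the 32 replication genes, coloured by step; names are given for genes far from 0. The points fill all 4 quadrants, and 9 genes lie in the lower left and 7 in the upper right.

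The highest and lowest values were spread over all 4 arrays, most often on N-myc low mouse 2. N-myc low mouse 2 was the highest array for 11 members and the lowest for 13, and N-myc low mouse 1 was the highest for 10 and the lowest for 4. N-myc high mouse 1 was the highest for 5 and the lowest for 6, and N-myc high mouse 2 the highest for 6 and the lowest for 9. Over all 18193 genes, N-myc low mouse 2 was the highest for 5075 and the lowest for 4622. In the same order, the counts were 5041 and 4003 for N-myc low mouse 1 and 3630 and 5422 for N-myc high mouse 1. For N-myc high mouse 2 they were 4447 and 4146. Leaving out N-myc low mouse 1 brought 3 members, Mcm10, Pole and Rfc4, to an unadjusted p under 0.05 (all lower in N-myc high), where 8.31% of all genes were. Leaving out N-myc low mouse 2 brought Pold1 there, where 6.90% of all genes were. These fits assume that the lone N-myc low array varies like the N-myc high arrays.

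Genes of the wider replication pathway had an unadjusted p under 0.05 in limma about as often as all genes. Of 51 further genes of origin recognition, firing, synthesis and S-phase control, all were measured, 0 had an adjusted p under 0.05 by limma, while 4 (7.84%, against 6.31% of all genes) had an unadjusted p under 0.05, 1 higher and 3 lower. Their median difference was -0.11, with 37 below 0 and 14 above. Both N-myc high arrays lay below both N-myc low arrays for 16 of the 51 (31.4%, against 20.8% of all genes) and above for 4 (7.84%, against 15.6%). Ticrr, Mcmbp, E2f2 and E2f7, described next, were picked for the smallest unadjusted p of the list. Any other probe sets of theirs are not given here.

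Ticrr, or treslin, which brings Cdc45 to licensed origins, read 7.33 and 7.01 on the N-myc high arrays, against 8.83 and 8.18 on the N-myc low arrays. Both N-myc high arrays were lower, by a difference of -1.33 (SE 0.295, limma adjusted p = 0.762). Mcmbp, which binds MCM subunits, read 7.19 and 6.90 on the N-myc high arrays, against 7.96 and 8.04 on the N-myc low arrays, a difference of -0.96 (SE 0.200, limma adjusted p = 0.762).

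E2F family genes went both ways. E2f2, an activator, read 5.86 and 6.22 on the N-myc high arrays, against 6.66 and 7.11 on the N-myc low arrays, a difference of -0.84 (SE 0.258, limma adjusted p = 0.769). E2f7, a repressor of S-phase genes, read 7.82 and 7.44 on the N-myc high arrays, against 5.47 and 6.86 on the N-myc low arrays, a difference of 1.46 (SE 0.511, limma adjusted p = 0.779). The groups did not overlap for either gene, and for E2f7 the difference was 2.35 in mouse 1 and 0.58 in mouse 2. E2f8, the related repressor, gave -0.54.

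**Figure D4:**
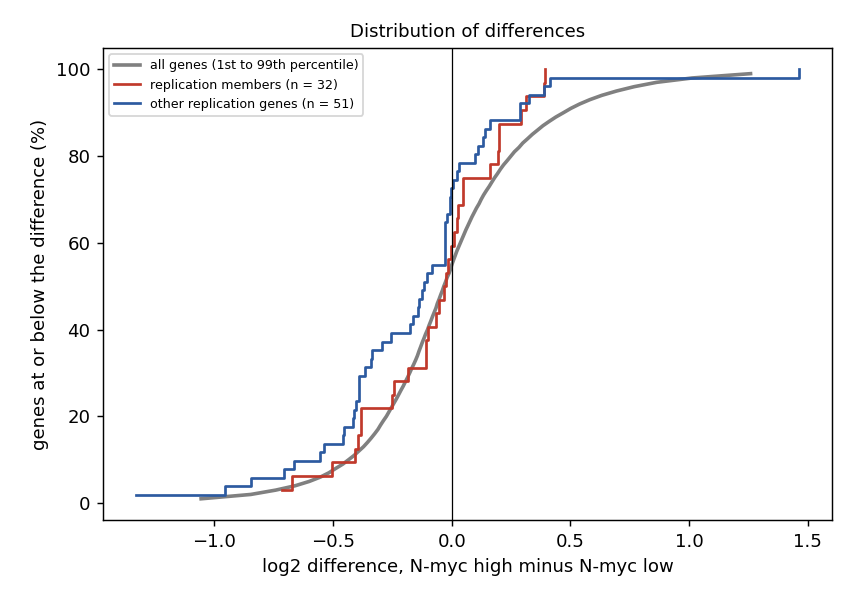
Cumulative share of genes (vertical, percent) at or below a given log2 difference between N-myc high and N-myc low (horizontal) for the 32 replication members (red), 51 other replication genes (blue) and all genes from the 1st to the 99th percentile (grey). The members run from -0.71 to 0.40 around the curve of all genes, and the other replication genes have a median of -0.11.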

How the data were processed

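RNA of 4 sorted stem cell samples (5 ng each, amplified and biotin-labelled with NuGEN Ovation reagents, per the labels' protocols) was measured on an Affymetrix mouse array. The deposited values are log2 intensities per probe set, made by the authors with RMA. The submitters' processing notes list RMA, affy and limma, and the sources used here give no versions, chip definition or filters. RMA equalises the arrays' distributions, so the values hold no absolute RNA amount and levels of different genes were not compared. The number of arrays limits the precision.

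Of 45101 probe sets, 34945 named 1 gene in the platform annotation, and 932 with several names, 9160 unnamed and 64 controls were left out. Symbols were checked through Entrez numbers (34741 found). The fractions were compared across 18193 genes in R 4.3.3 with limma 3.58.1 (lmFit, eBayes), with Benjamini-Hochberg adjustment over all genes and no filter on dim genes. With 2 against 2 arrays the smallest two-sided p of an exact permutation test is 0.333, so all p-values are limma's. Alternatives were another rule for probe sets, a filter on dim genes, another prior, other scalings, each array left out, and the mouse as a replicate block. The labels give mouse numbers, read as shared animals. Across genes, deviations of same-numbered arrays correlated at r = 0.0492, and over the 32 members at r = 0.33.

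All members were named, with values per array for those whose groups did not overlap and the smallest p of each step, and from the other replication genes the 4 of smallest p. Pold1, Mcm5, Mcm7, Mcm10, Cdc45, Pcna, Rfc3, Rfc5, E2f8, Birc5, Bub1 and the other marker genes named were given further values after these were seen. Members and lists were chosen with earlier results of these data known.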

Additional observations from a re-analysis of the deposited data

How the results depend on the processing

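No gene passed the adjusted threshold in limma under any alternative, and the lowest adjusted p of a replication member in any of them was 0.542. With the mouse as a replicate block, 0 members and 1098 of all genes (6.04%) had an unadjusted p under 0.05, and no adjusted call changed. Of the other replication genes, 3 were below that p with the block (Mcmbp, Ticrr and E2f2), without E2f7. The members at an unadjusted p under 0.05, 0 of 32, were 1 with the mean of all probe sets of a gene (Pola1) and 3 with every probe set tested, and 0 to 3 with each array left out. Their median difference was -0.11 with the mean of probe sets and -0.11 with every probe set, and -0.05 to 0.02 with each array left out. Over all features the count was 2210 of 34945 probe sets (6.32%) with every probe set tested, and 606 of 9097 genes (6.66%) at or above the median level. Of all 18193 genes it was 1222 (6.72%) with the mean of probe sets and 1140 (6.27%) with an intensity trend and robust prior. For the other replication genes it was 8 with every probe set, 7 with an intensity trend and robust prior, and 2 to 5 with each array left out, fewest without N-myc high mouse 2. With every probe set, the counts are of probe sets, 3 of 74 for the members and 8 of 108 for the other replication genes. They are therefore not set against 0 of 32 and 4 of 51 genes. Leaving out an array keeps 1 array in a group, so nothing is read from those counts. The cause of the shifts between settings was not tested, beyond the different number of features tested.

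Of the 32 members, 11 kept their sign in every alternative and 21 did not. Leaving out an array could not turn a member whose groups did not overlap. The block, filter and prior runs returned the same differences, so a kept sign is weak support. The mean of probe sets turned Mcm2 (-0.075), Mcm5 (-0.49), Mcm6 (-0.12), Cdt1 (0.20), Cdc45 (-0.23), Gins1 (0.10), Rfc3 (-0.075) and Hells (-0.55). Centring the arrays turned Mcm2 (-0.0030), Mcm6 (-0.0042), Cdc45 (-0.041), Tipin (-0.031) and Ung (-0.025), and a second quantile normalization turned Cdc45 (-0.028) and Gins1 (0.00081). With 1 array left out at a time, the members that turned ranged as follows: Gins1 (-0.19 to 0.19), Prim1 (-0.54 to 0.038), Prim2 (-0.14 to 0.090), Pcna (-0.11 to 0.079), Tipin (-0.18 to 0.22), E2f1 (-0.24 to 0.18), Ung (-0.020 to 0.072), Mcm4 (-0.15 to 0.019), Cdc45 (-0.60 to 0.62), Rfc5 (-0.91 to 0.15), Hells (-0.15 to 0.54), Mcm5 (-0.070 to 0.47), Mcm6 (-0.13 to 0.22), Mcm7 (-0.28 to 0.17), Pold1 (-1.39 to 0.043), Mcm2 (-0.0014 to 0.097), Mcm10 (-1.13 to 0.31), Pola1 (-0.38 to 0.010) and Rpa2 (-0.28 to 0.062).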
